A study of Rattus norvegicus with 12 samples.

Results

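Genes that mark neurons, astrocytes and oligodendrocytes were followed across 12 rat brain tumours. The set held 47 genes chosen by symbol: 22 neuron, 10 astrocyte and 15 oligodendrocyte genes. Of these, 42 had a probe on the array, 1 probe each (21 neuron, 7 astrocyte and 14 oligodendrocyte genes), among 22523 probes in all. No probe is named here for Gria1, an AMPA receptor subunit, Aldh1l1, an astrocyte folate enzyme, Glul, glutamine synthetase, Sox9, a glial transcription factor, or Gpr17, a receptor of oligodendrocyte precursors. Detection on at least 6 of 12 arrays was required for testing, and 35 members met it (16 neuron, 6 astrocyte and 13 oligodendrocyte genes) among 11695 genes tested. Of these 11695, 8383 had a gene symbol, and the rest were probes without a symbol, each counted as a gene in every share of all genes.

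The tumours grew from 9L, a rat gliosarcoma cell line, in syngeneic female Fischer rats of 4 to 6 weeks of age. In 6 rats the implanted cells carried EGFRvIII, a shortened epidermal growth factor receptor that signals without ligand, and in the other 6 they carried the empty vector (EV). Per the labels' protocols the EGFRvIII cells were made by transfection with pcDNA3.1(+) and selected with zeocin, and the labels name 1 line per group, so differences between the lines and the effect of EGFRvIII cannot be told apart. Cells were placed 2 mm into the cortex, no treatment was given, and whole tumours were taken after 3 weeks and hybridised to Illumina RatRef-12 arrays. Each rat gave 1 array, and the p-values measure the spread between rats.

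Neurons carry the electrical traffic of the cortex and are known by the proteins of their synapses and axons. Astrocytes clear glutamate and potassium around them, and oligodendrocytes wrap axons in myelin, a stack of membrane held together by a small number of abundant proteins. A tumour growing in the brain can include or border on all of these host cells, so a bulk piece can contain their transcripts beside those of the tumour cells. In bulk tissue, fewer cells of a type and less RNA per cell cannot be told apart.

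To read how much neuronal transcript each tumour held without using any member, a brain index was computed as the mean log2 level of 13 other neuron genes (Syp, Vamp2, Rab3a, Cplx1, Dnm1, Amph, Nsf, Rtn1, Chgb, Sv2a, Sv2b, Napb and Ncdn). The index was 7.84, 6.39, 6.84, 6.61, 6.52 and 6.34 in EGFRvIII rats 1 to 6, against 6.42, 8.79, 7.18, 7.56, 7.17 and 6.67 in EV rats 1 to 6. EGFRvIII rat 1 and EV rat 2 were the highest tumours of their groups, and EGFRvIII rat 6 and EV rat 1 the lowest. The groups overlapped: the mean was 6.76 ± 0.56 in EGFRvIII and 7.30 ± 0.83 in EV tumours (SD, n = 6 each), a difference of -0.54 (exact two-sided permutation test, p = 0.219). Single tumours moved it: the difference was -0.76 without EGFRvIII rat 1 (exact permutation p = 0.0498), -0.24 without EV rat 2 (exact permutation p = 0.448) and -0.46 without both (exact permutation p = 0.0794).

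Several facts of the whole data set move with the index or the group. Between 11182 and 12040 probes were detected per EGFRvIII array, against 11720 to 12719 per EV array, and the 75th percentile of the raw signal was 98.65 to 121 in EGFRvIII and 128.9 to 154.65 in EV arrays, with no overlap. EV rat 2 had the highest brain index and also the lowest mean of 6 cell division genes (8.95, against 9.48 to 9.93 in the other EV tumours and 9.97 to 10.23 in EGFRvIII tumours). EV rat 3 had the highest mean of 6 meninges and fibroblast genes (10.47, against 6.88 to 9.28 in the other EV tumours and 6.34 to 7.64 in EGFRvIII tumours) and the lowest mean of 6 microglia and macrophage genes (6.33, against 7.14 to 7.56 in the other EV tumours and 7.55 to 8.11 in EGFRvIII tumours). The part of these in the results below was not tested. Egfr, whose rat probe was at background on every array (0 of 12 detected), gives no check of the labels.

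The levels of all 42 measured members per tumour are given in log2 units after background correction and quantile normalization. Levels near 4 lie at the floor of this scale, where differences are compressed. EV rat 2 was the highest EV tumour for 41 of 42 members, all but Olig2. EGFRvIII rat 1 was the highest EGFRvIII tumour for 35 of 42, the exceptions being Nefh, Slc1a3, Clu, Mag, Aspa, Enpp2 and Olig2. The distance between the lowest and the highest of 12 tumours was at least 2 log2 units for 29 of the 35 members tested, and 11.7% of all genes tested had such a range. The 6 members with a smaller range were Nefm, Nefh, Camk2a, Slc1a2, Aspa and Olig2.

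**Figure D1:**
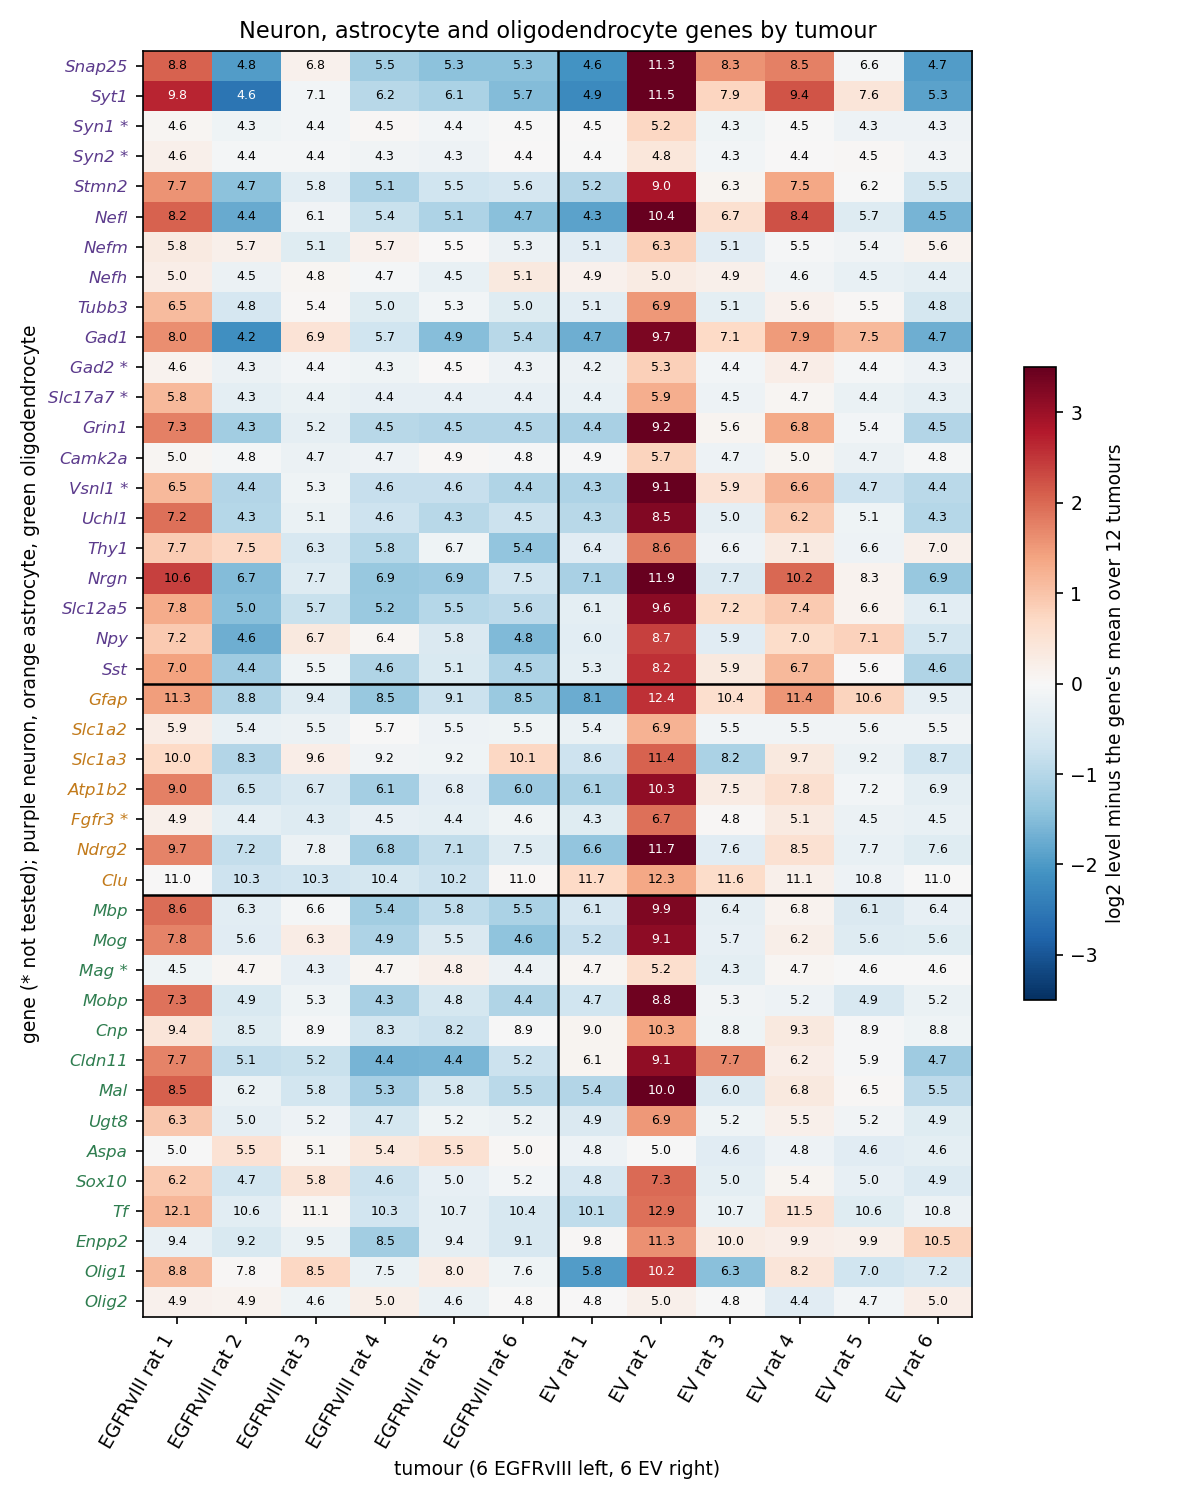
Heat map of 42 members (rows, by cell class) in 12 tumours (columns, EGFRvIII left, EV right). The number in a cell is the log2 level, its colour is the level minus the gene's mean over 12 tumours, and a star marks the 7 members not tested. EGFRvIII rat 1 and EV rat 2 are the red columns, while Nefm, Nefh, Aspa, Clu and Olig2 vary little or follow another order.

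Which members covary with neuronal transcripts was asked by fitting each gene on the group and the brain index together. The slope is the change of a gene in log2 units per log2 unit of the index, at equal group. Index and members were measured on the same arrays and share their normalization. Of the 13 index genes, each a part of the index, 10 had a slope on it past an adjusted p of 0.05. The others were Vamp2 (0.30 ± 0.08, adjusted p = 0.0672), Sv2a (-0.08 ± 0.10, adjusted p = 0.752) and Sv2b (0.01 ± 0.08, adjusted p = 0.962). Sv2b lay between 12.45 and 13.17 in all 12 tumours, so not every index gene follows the index. Of 35 members 27 had a positive slope past an adjusted p of 0.05 and 0 a negative one. Among all 11682 genes in this comparison (the index genes left out) 4.46% passed, 3.88% with a positive and 0.582% with a negative slope. By class, 12 of 16 neuron genes, 5 of 6 astrocyte genes and 10 of 13 oligodendrocyte genes passed. The median slope was 1.66 for neuron, 1.38 for astrocyte and 1.15 for oligodendrocyte genes, and -0.06 over all genes.

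Fewer slopes were called without the highest tumour of each group. With EGFRvIII rat 1 and EV rat 2 left out, 8 members kept their call, of which 7 were neuron genes (Snap25, Syt1, Stmn2, Nefl, Gad1, Grin1 and Uchl1), 1 was an astrocyte gene (Gfap) and 0 were oligodendrocyte genes. Over all genes 72 passed in these 10 tumours (0.616%). The median slope in them was 1.58 for neuron, 0.97 for astrocyte and 0.57 for oligodendrocyte genes. Members that lost their call differed in how far the slope moved: it stayed at 2.38 for Nrgn, 1.59 for Sst, 1.57 for Npy and 1.43 for Olig1, against 2.32, 1.54, 1.35 and 1.47 in 12 tumours, and was 0.57 for Mbp, 0.45 for Mobp and 0.07 for Slc1a2, against 1.75, 1.75 and 0.51 in 12 tumours. Without EV rat 2 alone 218 genes passed (1.87%), and 21 members kept their call. Of the 6 members that lost it, Npy (1.36 ± 0.33, adjusted p = 0.0729) and Cldn11 (1.61 ± 0.46, adjusted p = 0.162) had slopes near those in 12 tumours (1.35 for Npy and 1.63 for Cldn11), at a larger SE. The slopes of the other 4 were 0.22 ± 0.10 for Slc1a2, 0.63 ± 0.30 for Slc1a3, 0.44 ± 0.18 for Cnp and 1.02 ± 0.29 for Olig1.

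**Figure D2:**
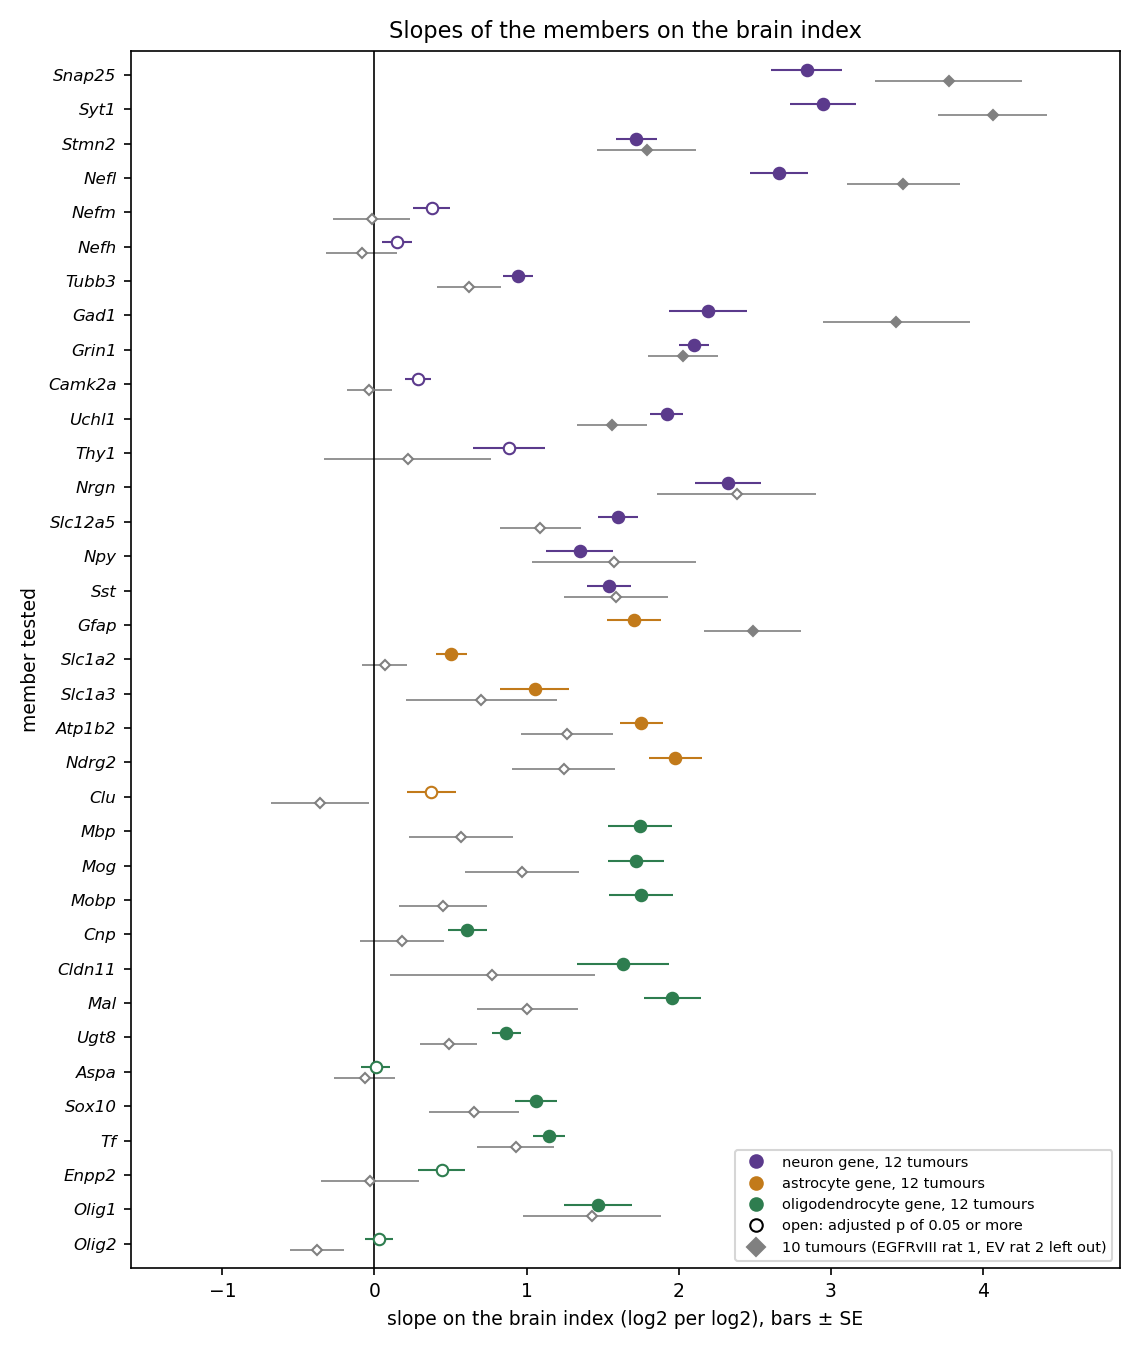
Slope of each tested member on the brain index (x axis, log2 units of the gene per log2 unit of the index, bars ± SE), with circles for 12 tumours and diamonds for the 10 left after EGFRvIII rat 1 and EV rat 2 were taken out. Filled symbols have an adjusted p under 0.05: 27 members with 12 tumours and 8 with 10.

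Snap25 and Syt1, the tested genes of the synaptic vesicle cycle, had the steepest slopes of the 35 tested members. Snap25, a SNARE protein that drives vesicle fusion, lay at 4.75, 5.38 and 8.77 (lowest, median and highest) in EGFRvIII tumours, against 4.62, 7.45 and 11.34 in EV tumours. Its slope was 2.84 ± 0.23 (SE, adjusted p = 2.48e-06), and the probe was detected on 5 of 6 arrays in each group. Syt1, the calcium sensor of vesicle release, lay at 4.62, 6.13 and 9.85 in EGFRvIII tumours, against 4.95, 7.75 and 11.49 in EV tumours. For both genes the groups overlapped widely, and EGFRvIII rat 1 and EV rat 2 were the highest of their groups. The slope of Syt1 was 2.95 ± 0.22 (adjusted p = 1.02e-06), and its probe was detected on 5 of 6 EGFRvIII and 6 of 6 EV arrays. For Syn1 and Syn2, the synapsins that tether vesicles, 0 of 6 EGFRvIII and 1 of 6 EV arrays detected the probe, and they were not tested. Their highest level was in EV rat 2, at 5.21 for Syn1 and 4.84 for Syn2.

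Of 5 genes of the neuronal cytoskeleton, 3 had a called slope. Nefl, the neurofilament light chain, had levels of 4.40, 5.24 and 8.21 in EGFRvIII tumours and 4.29, 6.22 and 10.42 in EV tumours, with a slope of 2.66 ± 0.19 (adjusted p = 7.70e-07). Stmn2, a microtubule regulator of growing axons, had levels of 4.74, 5.52 and 7.75 in EGFRvIII tumours and 5.16, 6.22 and 9.04 in EV tumours, with a slope of 1.72 ± 0.14. Tubb3, the neuronal beta tubulin, was detected on 12 of 12 arrays and had a slope of 0.94 ± 0.10 (adjusted p = 2.23e-05). The other neurofilament chains did not pass. Nefm, the medium chain, was detected on 12 of 12 arrays at 5.08, 5.58 and 5.82 in EGFRvIII tumours and 5.10, 5.42 and 6.34 in EV tumours, and its slope was 0.38 ± 0.12 (adjusted p = 0.115). Nefh, the heavy chain, was detected on 3 of 6 arrays in each group and stayed between 4.39 and 5.07, with a slope of 0.15 ± 0.10 (adjusted p = 0.481).

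Among transmitter genes, Gad1, which makes GABA, lay at 4.25, 5.57 and 8.01 in EGFRvIII tumours, against 4.68, 7.31 and 9.69 in EV tumours (slope 2.19 ± 0.26, adjusted p = 6.45e-05). Grin1, the obligatory subunit of NMDA receptors, lay at 4.30, 4.53 and 7.29 in EGFRvIII tumours, against 4.38, 5.51 and 9.19 in EV tumours. Its slope of 2.10 ± 0.10 had the smallest adjusted p of all members (9.69e-08), although the probe was detected on 2 of 6 EGFRvIII and 4 of 6 EV arrays. Camk2a, a kinase of excitatory neurons, had a slope of 0.29 ± 0.09 that did not pass (adjusted p = 0.0879), and 11 of 12 tumours lay between 4.68 and 4.97 with EV rat 2 at 5.67. Gad2, the second GABA-making enzyme, was detected on 0 of 6 EGFRvIII and 2 of 6 EV arrays, and Slc17a7, a vesicular glutamate transporter, on 1 of 6 EGFRvIII and 2 of 6 EV arrays.

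The peptides of inhibitory interneurons also passed. Npy, neuropeptide Y, lay at 4.64, 6.13 and 7.24 in EGFRvIII tumours, against 5.69, 6.47 and 8.74 in EV tumours (slope 1.35 ± 0.22, adjusted p = 0.00135). Sst, somatostatin, was detected on 3 of 6 EGFRvIII and 5 of 6 EV arrays, and its slope was 1.54 ± 0.14 (adjusted p = 7.31e-06). Slc12a5, the chloride exporter of mature neurons, was detected on 12 of 12 arrays at 5.01, 5.52 and 7.79 in EGFRvIII tumours and 6.12, 6.87 and 9.63 in EV tumours, with a slope of 1.60 ± 0.13. In EGFRvIII tumours 5 of 6 lay below the lowest EV tumour, with EGFRvIII rat 1 at 7.79 inside the EV range.

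Nrgn, a calmodulin-binding protein of dendrites, was at 6.68, 7.23 and 10.57 in EGFRvIII tumours and 6.86, 8.01 and 11.85 in EV tumours (slope 2.32 ± 0.22, adjusted p = 7.38e-06). Uchl1, a ubiquitin hydrolase abundant in neurons, was detected on 2 of 6 EGFRvIII and 4 of 6 EV arrays and had a slope of 1.92 ± 0.11 (adjusted p = 2.09e-07). Vsnl1, a neuronal calcium sensor, was detected on 2 of 6 EGFRvIII and 3 of 6 EV arrays and was not tested. Its highest tumours were again EGFRvIII rat 1 at 6.53 and EV rat 2 at 9.15. Thy1, a surface protein of neurons that fibroblasts also carry, was at 5.43, 6.46 and 7.72 in EGFRvIII tumours and 6.43, 6.81 and 8.60 in EV tumours. Its slope of 0.88 ± 0.24 missed the threshold (adjusted p = 0.0544). EGFRvIII rat 2, with an index of 6.39, held 7.53, and without it the slope was 1.00 ± 0.17 (adjusted p = 0.00258). Without EGFRvIII rat 1 and EV rat 2 the Thy1 slope was 0.22 ± 0.55, and it was called in 4 of 25 other settings.

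**Figure D3:**
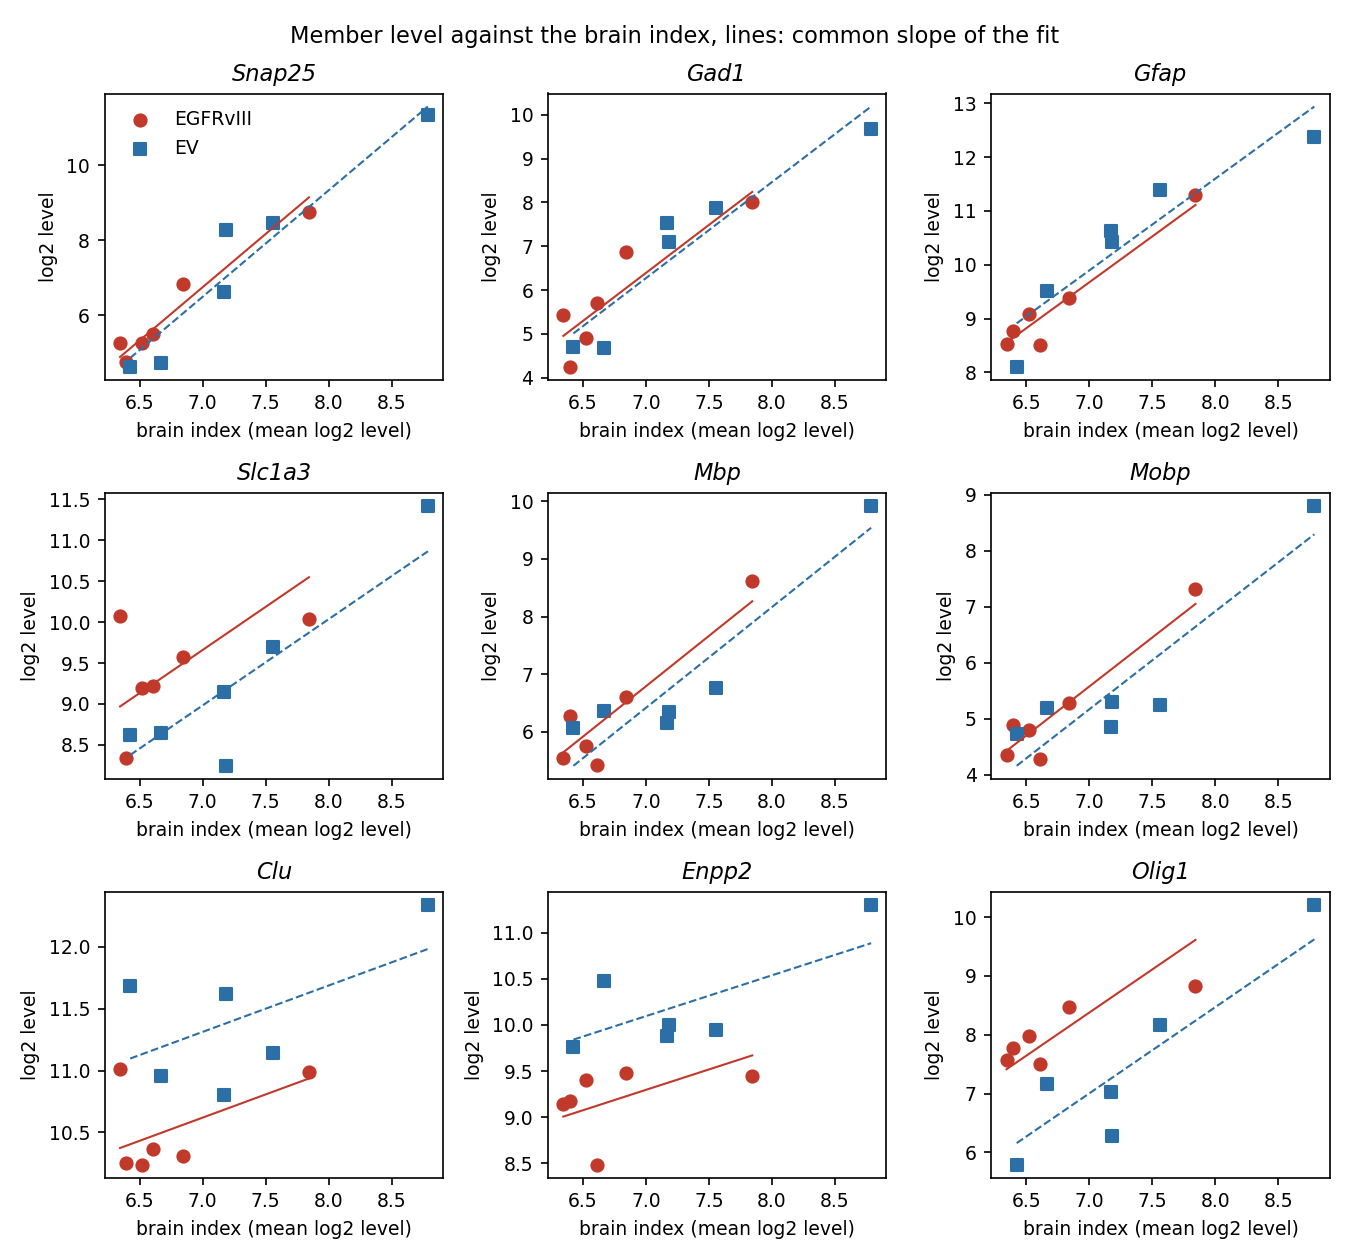
Log2 level (y axis) of 9 members against the brain index (x axis, mean log2 level of 13 neuron genes), 1 point per tumour, with red circles for EGFRvIII, blue squares for EV and lines for the common slope of the fit. Snap25, Gad1 and Gfap climb over the whole range of the index, Mbp and Mobp are high mainly in EGFRvIII rat 1 and EV rat 2, and the red points lie above the blue line for Olig1 and below it for Enpp2.

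Among astrocyte genes, Gfap, the intermediate filament of astrocytes, was detected on 12 of 12 arrays at 8.50, 8.93 and 11.30 in EGFRvIII tumours and 8.10, 10.52 and 12.38 in EV tumours. Its slope was 1.71 ± 0.18 (adjusted p = 2.09e-05), and 2.49 ± 0.32 in the 10 tumours without EGFRvIII rat 1 and EV rat 2. In those 10 tumours Gfap kept its call (adjusted p = 0.00470). Ndrg2, an astrocyte-enriched protein of the Ndrg family, was at 6.80, 7.35 and 9.74 in EGFRvIII tumours and 6.63, 7.67 and 11.71 in EV tumours (slope 1.98 ± 0.17). Atp1b2, a sodium pump subunit that also acts in cell adhesion, was at 5.97, 6.60 and 9.00 in EGFRvIII tumours and 6.13, 7.33 and 10.34 in EV tumours (slope 1.76 ± 0.14).

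The glutamate transporters varied less. Slc1a2, the main glutamate transporter of cortical astrocytes, lay between 5.41 and 5.92 in all 6 EGFRvIII tumours and between 5.45 and 5.55 in 5 of 6 EV tumours, with EV rat 2 at 6.89. Its slope was 0.51 ± 0.10 (adjusted p = 0.00851), and 0.22 ± 0.10 without EV rat 2 (adjusted p = 0.618). Slc1a3, the other glial glutamate transporter, was at 8.34, 9.39 and 10.07 in EGFRvIII tumours and 8.25, 8.90 and 11.42 in EV tumours, with a slope of 1.05 ± 0.23 (adjusted p = 0.0132). When only genes detected on all 12 arrays were kept, for the index as well, the adjusted p of the Slc1a3 slope was 0.0750. The highest EGFRvIII tumour for Slc1a3 was EGFRvIII rat 6 (10.07), the tumour of lowest index. Fgfr3, a growth factor receptor of astrocytes, was detected on 1 of 6 EGFRvIII and 3 of 6 EV arrays and was not tested.

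Clu, a secreted chaperone made by astrocytes and many other cells, was the 1 tested astrocyte member without a called slope. It was at 10.24, 10.34 and 11.02 in EGFRvIII tumours, against 10.80, 11.38 and 12.34 in EV tumours, and its slope was 0.37 ± 0.16 (adjusted p = 0.260). In EGFRvIII tumours the highest levels were 11.02 in rat 6 and 10.99 in rat 1, which have the lowest and the highest index of that group.

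Among oligodendrocyte genes, the components of compact myelin were high mainly in EGFRvIII rat 1 and EV rat 2. Mbp, myelin basic protein, was detected on 12 of 12 arrays at 5.43, 6.02 and 8.62 in EGFRvIII tumours and 6.07, 6.36 and 9.93 in EV tumours. Its slope was 1.75 ± 0.21 (adjusted p = 8.85e-05) in 12 tumours and 0.57 ± 0.34 (adjusted p = 1.0) in the 10 without those. Apart from EV rat 2, the EV tumours lay between 6.07 and 6.77 while their index spanned 6.42 to 7.56. Mal, a raft protein of myelin membrane, was at 5.27, 5.81 and 8.54 in EGFRvIII tumours and 5.42, 6.22 and 9.96 in EV tumours (slope 1.96 ± 0.19).

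Mobp, a basic protein of compact myelin, lay at 4.28, 4.84 and 7.32 in EGFRvIII tumours, against 4.73, 5.22 and 8.81 in EV tumours (slope 1.75 ± 0.21). Mog, a glycoprotein on the outer face of myelin, lay at 4.61, 5.56 and 7.76 in EGFRvIII tumours, against 5.22, 5.65 and 9.13 in EV tumours (slope 1.72 ± 0.18). Mag, an adhesion protein between myelin and axon, was detected on 0 of 6 EGFRvIII and 2 of 6 EV arrays. Cldn11, the tight junction protein of myelin, lay at 4.36, 5.17 and 7.71 in EGFRvIII tumours, against 4.73, 6.14 and 9.07 in EV tumours (slope 1.63 ± 0.30, adjusted p = 0.00395). On the authors' log2 values the Cldn11 slope was not called (1.56 ± 0.55, adjusted p = 0.166). The second highest EV tumour for Cldn11 was EV rat 3 (7.67), which held the highest mean of meninges and fibroblast genes, and the part of that in the slope was not tested.

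Of 3 enzymes of myelin, 2 had a called slope. Ugt8, which makes the lipid galactosylceramide, had a slope of 0.87 ± 0.09 (adjusted p = 3.22e-05), with levels of 4.73, 5.17 and 6.30 in EGFRvIII tumours and 4.85, 5.21 and 6.86 in EV tumours. Cnp, a phosphodiesterase of non-compact myelin, was at 8.20, 8.71 and 9.38 in EGFRvIII tumours and 8.79, 8.97 and 10.32 in EV tumours, with a slope of 0.61 ± 0.13 (adjusted p = 0.0100). That call was kept in 20 of 25 other settings, and was lost with median scaling (0.49 ± 0.14, adjusted p = 0.0834) and without EGFRvIII rat 1 (0.61 ± 0.16, adjusted p = 0.0509), as it was without EV rat 2. In the tumours of lowest index Cnp was at 8.94 (EGFRvIII rat 6) and 9.03 (EV rat 1), each above the median of its own group. Aspa, which cleaves N-acetylaspartate, had a slope of 0.01 ± 0.09 (adjusted p = 0.979).

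Secreted products of oligodendrocytes were detected on 12 of 12 arrays. Tf, the iron carrier transferrin, was at 10.31, 10.65 and 12.13 in EGFRvIII tumours and 10.08, 10.76 and 12.90 in EV tumours (slope 1.15 ± 0.10, adjusted p = 6.28e-06). Enpp2, autotaxin, an enzyme that makes lysophosphatidic acid and is also secreted by other cells, was at 8.48, 9.29 and 9.48 in EGFRvIII tumours, against 9.76, 9.97 and 11.31 in EV tumours. Its slope of 0.44 ± 0.16 did not pass (adjusted p = 0.157).

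Of 3 transcription factors of the lineage, Sox10 and Olig1 had called slopes. Sox10, needed for myelin gene expression, was at 4.59, 5.14 and 6.24 in EGFRvIII tumours and 4.75, 5.02 and 7.32 in EV tumours (slope 1.06 ± 0.14, adjusted p = 1.98e-04). Olig1 was detected on 12 of 12 arrays and had a slope of 1.47 ± 0.22 (adjusted p = 8.37e-04). Olig2 was detected on 4 of 6 arrays in each group, stayed between 4.40 and 5.03, and had a slope of 0.03 ± 0.09 (adjusted p = 0.899).

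The slopes were then compared between the groups, to ask whether a member tracks the index differently in EGFRvIII and EV tumours. Of 35 members 0 passed, and limma called 0 of 11682 genes in all (0.0%). Unadjusted, 475 genes lay below a p of 0.05. The lowest adjusted p among members was 0.993. The median slope of neuron genes was 1.75 in EGFRvIII and 1.62 in EV tumours, that of astrocyte genes 1.16 in EGFRvIII and 1.46 in EV tumours, and that of oligodendrocyte genes 0.94 in EGFRvIII and 1.15 in EV tumours. Aspa was the 1 member with slopes of opposite sign, -0.25 ± 0.15 in EGFRvIII and 0.12 ± 0.10 in EV tumours. In EGFRvIII tumours the slope of Olig1 was 0.81 ± 0.35, against 1.76 ± 0.24 in EV tumours.

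Which members were still detected where brain genes are low was read in EGFRvIII rat 6 (index 6.34) and EV rat 1 (index 6.42). EGFRvIII rat 2 had nearly the same index as EGFRvIII rat 6 (6.39). Its mean was lower for the tested neuron members (4.96 against 5.23) and astrocyte members (7.74 against 8.11). For oligodendrocyte members it was higher (6.49 against 6.27), and detection in EGFRvIII rat 2 was not counted here. Of 42 members, 27 were detected in both EGFRvIII rat 6 and EV rat 1: 10 of 21 neuron, 6 of 7 astrocyte and 11 of 14 oligodendrocyte genes. Of all 22523 probes, 11699 were detected in EGFRvIII rat 6 and 11720 in EV rat 1. These totals include probes without a gene symbol. How many probes were detected in both tumours was not counted, so 27 of 42 has no matching share. In neither tumour were 11 members detected, namely Syn1, Syn2, Nefl, Gad2, Slc17a7, Grin1, Vsnl1, Uchl1, Fgfr3, Mag and Mobp. Snap25 and Gad1 were detected in EGFRvIII rat 6 only, and Sst and Mog in EV rat 1 only. Detection here includes low levels. In EGFRvIII rat 6 Nefh, Camk2a, Aspa and Olig2 were at 5.07, 4.84, 5.01 and 4.79. In EV rat 1 the same genes were at 4.87, 4.85, 4.79 and 4.80. Nefl, detected in neither, was at 4.70 in EGFRvIII rat 6.

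Several members were well above the floor in these tumours. Gfap was at 8.52 in EGFRvIII rat 6 and 8.10 in EV rat 1, and Tf at 10.43 in EGFRvIII rat 6 and 10.08 in EV rat 1. Clu reached 11.02 in EGFRvIII rat 6 and 11.69 in EV rat 1, its second highest EV value. Enpp2 was at 9.14 in EGFRvIII rat 6 and 9.76 in EV rat 1. Slc1a3 was at 10.07 in EGFRvIII rat 6 and 8.62 in EV rat 1, and Olig1 at 7.57 in EGFRvIII rat 6 and 5.79 in EV rat 1, the lowest Olig1 level of 12 tumours. Of the 17 members detected on all 12 arrays, 13 nevertheless had a called slope, and Nefm, Thy1, Clu and Enpp2 did not. These calls depend on the index. With an index of 6 myelin genes that are not members, 31 of 35 members had a called slope, and 6.18% of all genes. Nefm (0.39 ± 0.09, adjusted p = 0.0177) and Thy1 (0.85 ± 0.18, adjusted p = 0.0118) then passed. So did Enpp2 (0.50 ± 0.10, adjusted p = 0.00975) and Camk2a (0.30 ± 0.06, adjusted p = 0.00429), while Clu, Nefh, Aspa and Olig2 did not.

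The study's own comparison set the mean of EGFRvIII tumours against that of EV tumours. Of 35 members 3 passed, Aspa higher and Clu and Enpp2 lower in EGFRvIII tumours. That is 8.57% of the members, whereas 21.5% of all 11695 genes passed (11.1% higher, 10.4% lower). With all 12 tumours no neuron gene passed (0 of 16, by limma), and 1 of 16, Slc12a5, lay under 0.05 before adjustment. The members had a median difference of -0.57, and all genes 0.01. For Snap25 the difference was -1.28 ± 1.04 (adjusted p = 0.418), for Gfap -1.14 ± 0.64 (adjusted p = 0.226) and for Slc12a5 -1.39 ± 0.59 (adjusted p = 0.110). Slc12a5 was called lower in EGFRvIII tumours without EGFRvIII rat 1 (-1.79 ± 0.52, adjusted p = 0.0290) and without EGFRvIII rat 1 and EV rat 2 (-1.30 ± 0.25, adjusted p = 0.00489), 2 of 22 other settings.

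Enpp2 averaged 9.19 ± 0.37 in EGFRvIII and 10.23 ± 0.58 in EV tumours (SD, n = 6 each), a difference of -1.04 ± 0.25 (adjusted p = 0.0100). It was the 1 member whose groups did not overlap, as was the case for 11.1% of all genes. Clu averaged 10.53 ± 0.37 in EGFRvIII and 11.42 ± 0.57 in EV tumours (-0.89 ± 0.25, adjusted p = 0.0192), and after median scaling its adjusted p was 0.0513. Aspa averaged 5.23 ± 0.25 in EGFRvIII and 4.73 ± 0.15 in EV tumours (0.50 ± 0.12, adjusted p = 0.00915). The Aspa probe was detected on 6 of 6 EGFRvIII and 3 of 6 EV arrays, and the call was lost when signals under 16 were set to 16 (0.38 ± 0.17, adjusted p = 0.138).

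Read at equal brain index, the groups differed in 3 members, Olig1 and Aspa higher and Enpp2 lower in EGFRvIII tumours. Over all genes 18.4% passed (8.56% higher, 9.84% lower). Olig1 was at 7.50, 7.88 and 8.83 in EGFRvIII tumours, against 5.79, 7.10 and 10.22 in EV tumours, so the groups overlapped and the plain difference was 0.58 ± 0.59 (adjusted p = 0.524). At equal index it was 1.38 ± 0.32 (adjusted p = 0.00918), and it passed in 25 of 25 other settings, at 0.90 to 1.75. This fit takes 1 slope for both groups. Fitted apart, the Olig1 slopes were 0.81 in EGFRvIII and 1.76 in EV tumours. Their difference was -0.95 ± 0.43 (limma interaction, unadjusted p = 0.0456, adjusted p = 0.993), so 1 value may not hold over the whole range of the index. Among EV tumours Olig1 was lowest in EV rat 1 (5.79) and EV rat 3 (6.27), while all 6 EGFRvIII tumours lay at 7.50 or above.

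Aspa kept nearly the same difference at equal index (0.51 ± 0.13, adjusted p = 0.0178), and that of Enpp2 was -0.80 ± 0.22 (adjusted p = 0.0222). For Enpp2 the call at equal index was lost without EGFRvIII rat 1 (adjusted p = 0.104), without EV rat 6 (adjusted p = 0.0732) and without EGFRvIII rat 1 and EV rat 2 together (adjusted p = 0.0530). Aspa kept its call at equal index in 21 of 24 other settings, and the losses included the fits without EV rat 6 (adjusted p = 0.0506) and with signals under 16 set to 16 (adjusted p = 0.263). Clu at equal index was -0.69 ± 0.23, just outside the threshold (adjusted p = 0.0518), and passed in 9 of 25 other settings. The median difference of the members at equal index was 0.21, positive for 26 of 35, where the plain difference was positive for 6 of 35. The index itself held 3 genes called lower in EGFRvIII tumours in the plain comparison, Dnm1 (-1.33 ± 0.35, adjusted p = 0.0164), Napb (-1.06 ± 0.36, adjusted p = 0.0492) and Sv2b (-0.36 ± 0.10, adjusted p = 0.0186), and the part of these in the values at equal index was not tested.

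**Figure D4:**
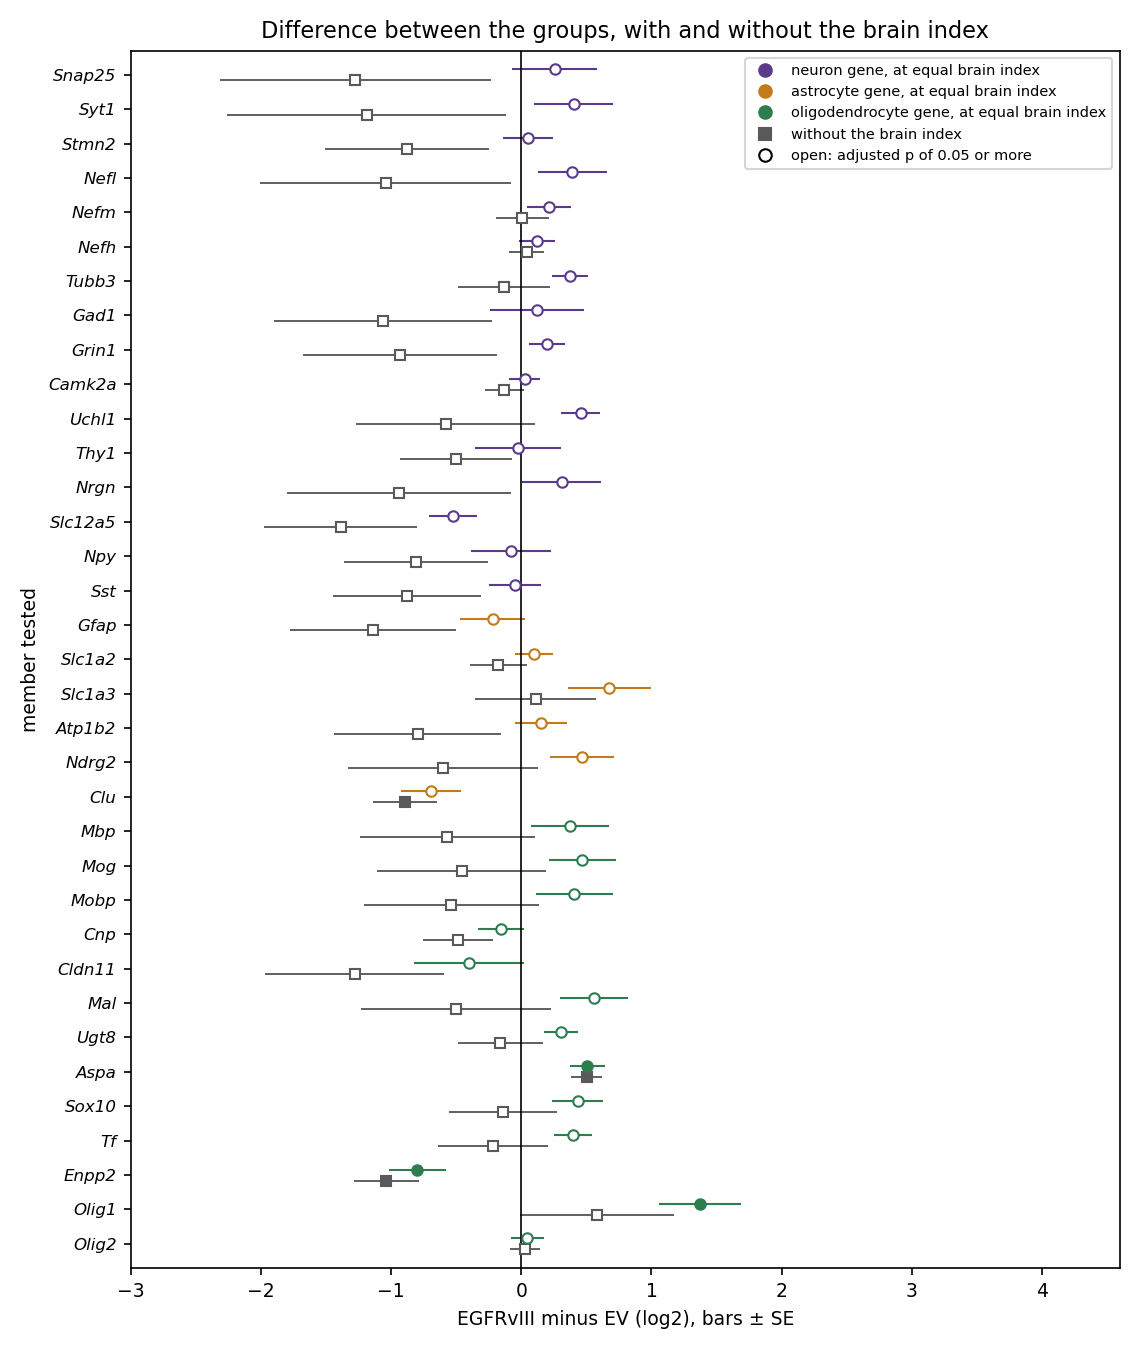
Difference between the groups, EGFRvIII minus EV (x axis, log2, bars ± SE), for each tested member, with coloured circles at equal brain index and grey squares without the index. Filled symbols have an adjusted p under 0.05: Aspa, Clu and Enpp2 without the index, and Olig1, Aspa and Enpp2 with it.

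Other genes of the same cell classes were read beside the members. Of 6 tested genes of a further myelin list, 4 had a called positive slope, Tspan2 (1.48 ± 0.19), Bcas1 (1.39 ± 0.27), Ermn (1.03 ± 0.12) and Hapln2 (1.00 ± 0.16), and 0 of 6 passed limma's test between the groups (lowest unadjusted p = 0.201, Hapln2). Of 10 further astrocyte genes 7 had a called positive slope, with Mt3, a brain metallothionein, at 2.48 ± 0.23, Aldoc, an astrocyte aldolase, at 2.07 ± 0.17, the connexin Gjb6 at 1.95 ± 0.24 and S100b at 1.88 ± 0.18. Gja1, the other astrocyte connexin, had no called slope (-0.03 ± 0.07, adjusted p = 0.853) and was lower in EGFRvIII tumours (-0.82 ± 0.09, adjusted p = 3.69e-05). Plcd4, a phospholipase, was higher in EGFRvIII tumours (2.20 ± 0.34, adjusted p = 5.79e-04), and Aldoc was higher at equal index (0.99 ± 0.24, adjusted p = 0.0111).

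Lists of other cell types had few called slopes, as had all genes (4.46% called, 3.88% positive and 0.582% negative). A slope was called for 0 of 3 oligodendrocyte precursor genes, 0 of 6 microglia and macrophage genes, 0 of 4 endothelial genes, 0 of 1 choroid plexus gene and 0 of 6 cell division genes, and for 1 of 6 meninges and fibroblast genes, the growth factor Igf2 (0.99 ± 0.25, adjusted p = 0.0386). All 6 cell division genes had negative slopes (median -0.29). The precursor genes differed between the groups instead: Pdgfra (-1.37 ± 0.21) and Vcan (-1.22 ± 0.12) were lower and Cspg4 (0.78 ± 0.17) was higher in EGFRvIII tumours, 3 of 3 called. Over all genes 21.5% passed this comparison (11.1% higher, 10.4% lower). Pdgfra lay between 9.24 and 12.01 and Vcan between 10.48 and 12.41 over the 12 tumours, and which cells hold these transcripts was not tested. All 4 endothelial genes were lower in EGFRvIII tumours, among them Slco1c1, a transporter of brain endothelium (-1.89 ± 0.42), as were 3 of 6 meninges and fibroblast genes, including Ogn (-1.47 ± 0.36) and Mgp (-1.56 ± 0.39). Among microglia and macrophage genes Mrc1 was the 1 called (3.57 ± 0.45, higher in EGFRvIII tumours), and among cell division genes Cdc20 (0.91 ± 0.20) and Kif20a (0.84 ± 0.16) were higher.

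Promoter sequences from RefSeq (assembly GRCr8, 250 bases before to 50 after 1 annotated start per gene) were held for 34 members, and 10 short motifs were searched on both strands among these and 27457 promoters in all. ACAAAG, a core that Sox-family factors can bind, lay in 3 of 11 oligodendrocyte promoters (Mag, Mobp and Cnp), 1 of 8 astrocyte promoters (Slc1a3) and 0 of 15 neuron promoters. That is 4 of 34 member promoters, against 18.3% of all promoters. TGACGTCA, the palindromic cAMP response element, lay in 2 of 15 neuron promoters (Syn1 and Sst) and in 1.91% of all. The stretches around these matches are shown for 2 myelin genes whose slopes passed and for Sst, 5′ to 3′ on the plus strand of GRCr8, with the match in capitals (for Mobp its reverse complement, CTTTGT, 8 times).
Mobp, chr8:128746982-128747121: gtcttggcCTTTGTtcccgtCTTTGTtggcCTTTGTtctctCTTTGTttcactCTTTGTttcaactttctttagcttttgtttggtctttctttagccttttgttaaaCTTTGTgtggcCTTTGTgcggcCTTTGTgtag
Cnp, chr10:86011274-86011333: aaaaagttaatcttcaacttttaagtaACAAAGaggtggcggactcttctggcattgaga
Sst, chr11:90461526-90461555: gatctgggggcgcctccttggcTGACGTCA
In Mobp the 8 copies lie between 242 and 115 bases before the start, in Cnp the match is 203 to 198 bases before it, and in Sst it is at bases 3 to 10 after it. Mobp, with 8 copies, had a slope of 1.75 and Cnp, with 1, a slope of 0.61. Mal and Mbp, whose promoters had no ACAAAG match, had slopes of 1.96 and 1.75. A match in these letters is a description and not a binding site, and a relation of matches to slopes was not tested.

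The other motifs lay in 0 to 12 of 34 member promoters, with GGGCGGGG the most frequent. TTCAGCACC, a part of the element bound by the neuronal repressor REST, lay in 0 of 34 member promoters and in 0.379% of all promoters. ACAATGG lay in 0 of 34 members and 3.82% of all. TATAAA lay in 7 of 34 members and 14.3% of all, TATAAAA, which contains it, in 2 of 34 and 5.85%, and GCCAAT in 5 of 34 and 14.3%. The E-boxes CAGATG and CAGCTG lay in 2 and 4 of 34 members and in 16.3% and 15.1% of all, and GGGCGGGG, a GC box, in 12 of 34 members (6 neuron, 1 astrocyte and 5 oligodendrocyte genes) and 16.3% of all.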

How the data were processed

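Per the file headers the deposited table holds the average signal intensity per probe, not normalized, for each of 12 arrays; its values below 0 show a background subtraction by the authors. The deposited detection score, a fraction from 0 to 1, was read from its values as 1 minus a detection p. The authors' second table was read as log2, quantile normalized, and served as an alternative. Partek is named, per the submitters' processing notes, with no version. No scan or chip batch was given in the sources used here.

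The neqc step of limma 3.58.1 (R 4.3.3) was run on the intensities with an offset of 16. A probe had to be detected (p under 0.05) in 6 or more of 12 tumours, which 11862 did, and each gene was represented by its kept probe of highest mean. Of 22523 probes 13793 had 1 gene symbol and 8730 none, and each probe with none counted as a gene of its own. Tests were two-sided (lmFit, then eBayes with its trend option), Benjamini-Hochberg adjusted over all genes: group alone, group with brain index, and their interaction. Of 27 listed index genes 13 were kept, none a member. The members, lists and tests were chosen with earlier results of these data known. All members are accounted for, and of other lists up to 4 called genes with the largest coefficients are named. The fits were tested on simulated data. The data did not show that the rat numbers in the labels pair the tumours: same-number correlations were -0.338 to -0.06, and 0 of 6 rats matched best with their own number. With 6 rats per group this cannot exclude a pairing. The number of arrays limits precision. Figures used Python 3.11.15 with matplotlib 3.10.9.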

Additional observations from a re-analysis of the deposited data

Results flagged for a closer look

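Within a group of 6 tumours, 1 tumour stood apart from the other 5 in 32 of 84 member and group combinations by Dixon's criterion. Chance flags about 1 in 20 groups of normally distributed values. The combinations include members near the floor, where that rate need not hold, and the share flagged over all genes was not computed. EGFRvIII rat 1 was the high tumour in 15 of them and EV rat 2 in 16. Members share their tumours, so these are not separate observations.

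In EGFRvIII rat 1 the log2 levels that stood apart were, among neuron genes, Stmn2 at 7.75, Tubb3 at 6.53, Slc17a7 at 5.79, Grin1 at 7.29, Uchl1 at 7.21, Nrgn at 10.57 and Slc12a5 at 7.79. Among glial genes they were Gfap at 11.30, Atp1b2 at 9.00, Ndrg2 at 9.74, Mbp at 8.62, Mobp at 7.32, Cldn11 at 7.71, Mal at 8.54 and Ugt8 at 6.30. The gap was widest relative to the range for Slc17a7, where the next EGFRvIII tumour was at 4.43, near the floor. Its probe was detected on 1 of 6 EGFRvIII arrays.

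In EV rat 2 the neuron genes that stood apart were Syn1 at 5.21, Syn2 at 4.84, Tubb3 at 6.93, Slc17a7 at 5.94, Camk2a at 5.67, Thy1 at 8.60 and Slc12a5 at 9.63. The glial genes were Slc1a2 at 6.89, Fgfr3 at 6.66, Mbp at 9.93, Mog at 9.13, Mobp at 8.81, Cnp at 10.32, Mal at 9.96, Ugt8 at 6.86 and Sox10 at 7.32. For Slc1a2 the next EV tumour was at 5.55.

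The 1 tumour that stood apart on the low side was EGFRvIII rat 4, for Enpp2, at 8.48 against 9.14 in the next EGFRvIII tumour.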

How the results depend on the processing

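Single-gene values were recomputed 1129 times and the counts and index differences 120 times. Of the single-gene values, 1051 stayed on the same side of the threshold with the same sign, 41 lost a call, 20 gained one and 17 changed sign. The number of genes with a called slope was 521, and it was 1080 with no filter on dim probes, 271 with detection required on all 12 arrays, 72 without EGFRvIII rat 1 and EV rat 2, and 218 (without EV rat 2) to 620 (without EV rat 3) with 1 array left out. With no filter, and with all 12 arrays required, the genes held in the index changed as well. The number of genes called at equal index was 2150, and it was 991 without EGFRvIII rat 1 and EV rat 2 and 1426 (without EGFRvIII rat 1) to 2337 with 1 array left out. No slope difference between the groups was called (0 genes), except 1 gene with signals under 16 set to 16 and 0 to 1 with 1 array left out. The index difference was -0.24 to -0.76 with 1 array left out. With the rat number as a replicate block, which the data did not bear out as a pairing, 1819 genes differed between the groups, 291 had a called slope, 1317 differed at equal index, 0 differed in slope, and the index difference was -0.54 (exact permutation p = 0.375). Among members, the block ended the calls of the slopes of Slc1a2 (adjusted p = 0.156), Slc1a3 (adjusted p = 0.0602) and Cnp (adjusted p = 0.0812) and of Aspa at equal index (0.45, adjusted p = 0.0503). Of the plain group difference, 1819 to 3048 genes were called over all alternatives. The causes of these moves were not tested beyond the fewer samples or genes that a setting leaves. Sign changes concerned slopes that were not called. For Aspa, brain index slope 0.01 here, the slope was -0.065 without EGFRvIII rat 1 and EV rat 2, -0.015 with array weights, -0.0056 with a median index, -0.10 with the replicate block, -0.084 with signals under 16 set to 16 and -0.17 to 0.10 with 1 array left out. For Olig2, brain index slope 0.03 here, it was -0.38 without those tumours, -0.014 on the authors' log2 values and -0.081 to 0.075 with 1 array left out. Without those tumours the slopes of Camk2a, Clu, Enpp2, Nefh and Nefm were -0.034, -0.36, -0.030, -0.083 and -0.018. Signal over background limits Syn1, Syn2, Gad2, Slc17a7, Vsnl1, Fgfr3 and Mag, which were not tested.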
